A study of Mus musculus with 16 samples.

Results

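The genes described here are the interleukin-1 (IL-1) cytokines, their receptors and their inhibitors, 10 genes chosen by name from the 55414 gene identifiers of the count files. They comprise the ligands *Il1a*, *Il1b*, *Il33* and *Il18*, the inhibitors *Il1rn*, *Il18bp* and *Il1r2*, and the receptor chains *Il1r1*, *Il1rap* and *Il1rl1*. Their transcripts were measured by RNA-Seq in chondrocyte-enriched cells from the epiphyses of newborn mice, male and female pooled, in 16 libraries. The cells came from heterozygous Notch2tm1.1Ecan mice, labeled Notch2 mutant, or from control littermates, labeled wild type, both on a C57BL/6 background. The Notch2tm1.1Ecan allele is global and carries a stop codon upstream of the PEST domain, so that NOTCH2 is stable and gains function. Cells of each genotype were exposed for 6 h to vehicle, which was PBS, or to TNFα at 50 ng/ml, and each of the 4 groups held 4 libraries. The sample annotation gives serum removal for the TNFα groups only and the published methods give it for all cells, so that TNFα against vehicle may include the removal of serum.

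IL-1α and IL-1β bind IL-1 receptor type 1 (*Il1r1*), which then recruits the accessory protein (*Il1rap*) and signals through MYD88, the IRAK kinases and NF-κB. The antagonist (*Il1rn*) occupies the same receptor without signaling, and the type 2 receptor (*Il1r2*) binds IL-1 as a decoy. IL-33 signals through ST2 (*Il1rl1*), again with the accessory protein, and IL-18 is neutralized by its binding protein (*Il18bp*). In cartilage, IL-1 is known for inducing matrix-degrading enzymes and inflammatory mediators in chondrocytes.

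The libraries held between 3439726 and 44237300 counts assigned to genes (median 17062419), and the lowest total belonged to replicate 4 of the Notch2tm1.1Ecan TNFα group. All 15 chondrocyte markers were detected, and their summed level ranged from 20397 to 55679 counts per 1000000 (CPM, scaled with TMM factors). Transcripts of *Notch2* itself ranged from 104 to 188 CPM in control and from 136 to 240 CPM in Notch2tm1.1Ecan libraries, and gene counts do not separate the mutant transcript. A pair of control libraries stood apart. On a scale over 1207 genes that TNFα changed at least 4-fold in Notch2tm1.1Ecan cells, where 0 is the mean of their vehicle and 1 the mean of their TNFα libraries, control vehicle replicate 4 lay at 0.413 and control TNFα replicate 4 at 0.888. The other control libraries lay between -0.0104 and -0.000357 with vehicle and between 0.973 and 0.999 with TNFα. Calls of the 10 genes that change without the pair, and the list counts that differ, are given with and without them.

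The promoters of *Il1rl1*, *Il18bp* and *Il1rn*, the well-measured genes on which the TNFα and genotype results turn, are shown. RefSeq start sites on GRCm38.p6 gave 15 windows for the 10 genes, each of 250 bases before and 50 bases from the start, written 5′ to 3′ on the strand of the gene. *Il1rl1* has a distal start at chr1:40429320-40429619 and a proximal start at chr1:40439379-40439678, both on the plus strand. *Il18bp* lies on the minus strand at chr7:102018183-102018482, and the distal start of *Il1rn* is at chr2:24336610-24336909 on the plus strand. Capitals mark matches, on either strand, to the κB motif of NF-κB, the AP-1 motif TGANTCA, the STAT motif TTCNNNGAA or the motif TGGGAA of CSL, the DNA-binding partner of NOTCH.
Il1rl1 distal start: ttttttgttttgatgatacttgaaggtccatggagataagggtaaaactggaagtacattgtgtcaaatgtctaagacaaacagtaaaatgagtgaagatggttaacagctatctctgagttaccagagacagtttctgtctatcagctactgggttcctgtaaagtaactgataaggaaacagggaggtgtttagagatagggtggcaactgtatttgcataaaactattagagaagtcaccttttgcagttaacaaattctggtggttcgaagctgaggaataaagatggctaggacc
Il1rl1 proximal start: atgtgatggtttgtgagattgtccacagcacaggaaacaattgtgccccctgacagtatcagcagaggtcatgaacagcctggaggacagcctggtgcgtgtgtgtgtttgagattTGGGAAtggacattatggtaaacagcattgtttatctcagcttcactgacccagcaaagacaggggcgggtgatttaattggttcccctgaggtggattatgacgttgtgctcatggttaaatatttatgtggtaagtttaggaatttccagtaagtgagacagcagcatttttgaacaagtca
Il18bp: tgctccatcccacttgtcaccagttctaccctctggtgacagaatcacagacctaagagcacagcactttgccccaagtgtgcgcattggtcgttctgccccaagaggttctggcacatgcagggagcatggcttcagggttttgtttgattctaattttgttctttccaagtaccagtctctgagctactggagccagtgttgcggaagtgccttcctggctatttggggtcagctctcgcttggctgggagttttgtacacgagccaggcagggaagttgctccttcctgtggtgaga
Il1rn distal start: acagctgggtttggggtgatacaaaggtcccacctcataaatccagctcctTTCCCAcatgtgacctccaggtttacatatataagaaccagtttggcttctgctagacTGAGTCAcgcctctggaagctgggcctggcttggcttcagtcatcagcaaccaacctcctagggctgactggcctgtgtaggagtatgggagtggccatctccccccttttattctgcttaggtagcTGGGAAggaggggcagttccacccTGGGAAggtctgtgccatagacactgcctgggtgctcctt
The distal *Il1rl1* and the *Il18bp* windows held none of the motifs, and the proximal *Il1rl1* window held 1 CSL match. The distal *Il1rn* window held 3 CSL matches and 1 AP-1 match, at positions -199, -14 and 10 for CSL and -141 for AP-1 relative to the start. Among all 32851 RefSeq promoter windows, 25.6% held a CSL match and 0.368% held at least 3, while 4.51% held a κB, 7.81% an AP-1 and 8.3% a STAT match. The cut of at least 3 was taken from the distal *Il1rn* window, which held the most CSL matches of the 15 windows. The share of 0.368% is for a single window and not for the highest of 15. The motifs share no bases with each other in the windows shown. Of the 15 windows, 10 held a CSL match, including a pair of overlapping *Il1rn* windows that share 1 site, and the proximal *Il1r1* window alone held a κB match. That pair of *Il1rn* windows is not shown, and gene counts do not tell which *Il1rn* start was used. A match is only a match of letters.

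Levels of the 10 genes spanned several orders of magnitude. Per kilobase of exon, *Il1rn* was the most abundant with vehicle, at 34.3 ± 0.608 CPM (SD, n = 4) in control cells and 66 ± 4.67 in Notch2tm1.1Ecan cells. *Il1rl1* at 13.4 ± 4.82 and *Il1r1* at 13.2 ± 0.4 CPM per kilobase overlapped in control cells, whereas in Notch2tm1.1Ecan cells *Il1r1*, at 15.6 ± 0.922, lay above *Il1rl1*, at 8 ± 0.611, in all libraries. *Il1rap* followed at 1.72 ± 0.0797 in control and 2.11 ± 0.213 CPM per kilobase in Notch2tm1.1Ecan cells. *Il18* and *Il18bp* were lower and overlapped with vehicle, and *Il1r2*, *Il33*, *Il1a* and *Il1b* each overlapped their neighbors in that order. With TNFα *Il1rl1* took the highest place in both genotypes, at 92.9 ± 16.2 in control and 78.7 ± 6 CPM per kilobase in Notch2tm1.1Ecan cells. The panels of levels by library show these values per gene.

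**Figure D1:**
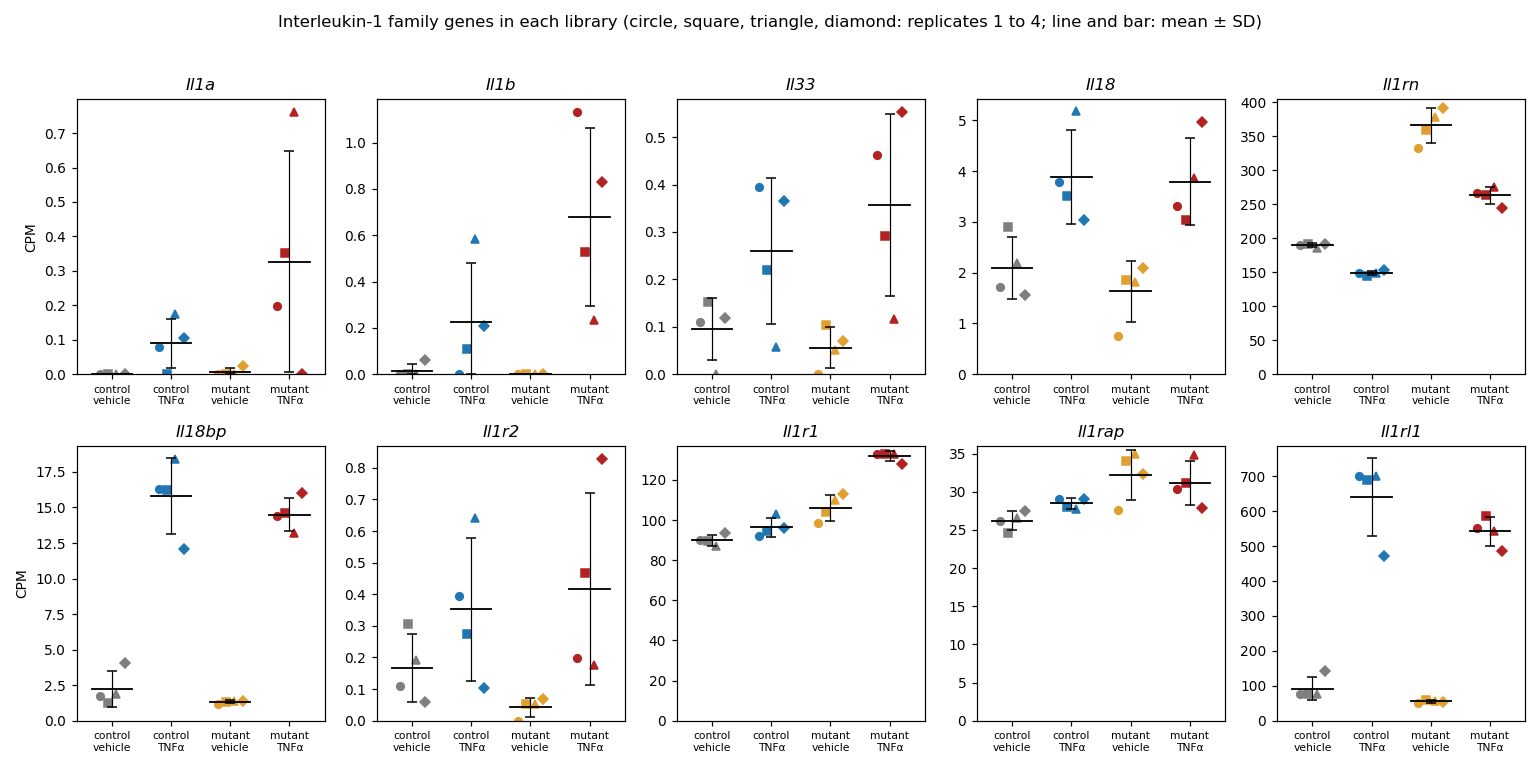
CPM (vertical axis, linear, from 0) of the 10 genes in the 16 libraries, by group; symbols are replicates 1 to 4, lines are means and bars are ± SD over 4 libraries. *Il1rl1* and *Il18bp* stand far higher with TNFα in both genotypes, *Il1rn* stands highest in Notch2tm1.1Ecan vehicle libraries, and the diamonds of the control groups show replicate 4 apart for *Il1rl1*.

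A gene was called changed where edgeR's quasi-likelihood test gave a p under 0.05 after Benjamini-Hochberg adjustment over all genes of that comparison. In control cells TNFα raised 4 of the 9 genes that had enough counts to be tested (*Il1b*, *Il18*, *Il18bp* and *Il1rl1*), beside 23.3% of all genes tested, and lowered *Il1rn*, beside 20.9%. In Notch2tm1.1Ecan cells TNFα raised 8 of 10 (*Il1a*, *Il1b*, *Il33*, *Il18*, *Il18bp*, *Il1r2*, *Il1r1* and *Il1rl1*), beside 22.6%, and lowered *Il1rn*, beside 21.9%. With vehicle, Notch2tm1.1Ecan cells had higher *Il1rn*, *Il1r1* and *Il1rap* among 8 genes tested, beside 6.19%, and none of the 8 was called lower, beside 4.35%. edgeR gave 2 of these 8 an unadjusted p under 0.05 toward lower values, and DESeq2 called 1 lower, *Il1rl1*. With TNFα they had higher *Il1rn* and *Il1r1* among 10, beside 5.63%, and none of the 10 was called lower, beside 4.31%. There edgeR gave 0 of them an unadjusted p under 0.05 toward lower values, and DESeq2 gave 1 at that level and called 0. Toward higher values each tool gave 4 at that level, *Il1a* and *Il1b* besides the 2 called. Without control replicate 4 the calls in either direction were 6 genes for TNFα in control cells, beside 47.4%, 4 between genotypes with vehicle, beside 10.4%, and 3 with TNFα, beside 11%. The comparisons share groups of libraries pairwise and are not independent of each other.

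**Figure D2:**
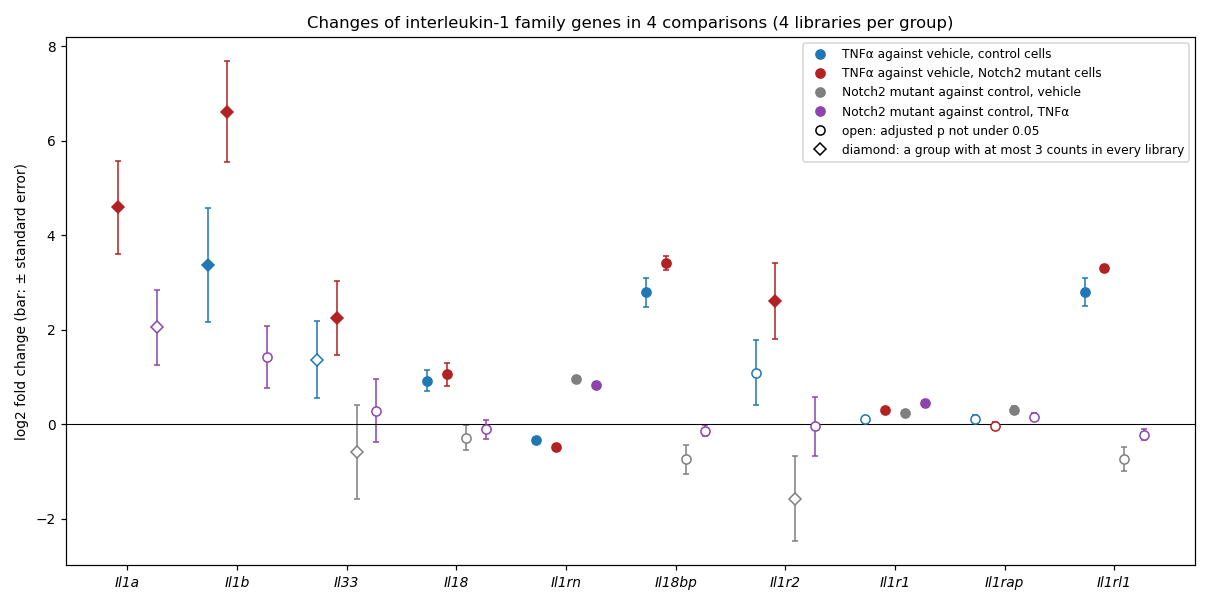
Log2 fold changes (vertical axis, points) with standard errors (bars) of the 10 genes in the 4 comparisons, 4 libraries per group, from edgeR; filled points had an adjusted p under 0.05, and diamonds mark comparisons in which a group had at most 3 counts in every library. TNFα shifts of *Il18bp* and *Il1rl1* lie near 3 in both genotypes, and the genotype shifts of *Il1rn* lie near 1.

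Among the inhibitors, the IL-1 receptor antagonist *Il1rn* was higher in Notch2tm1.1Ecan cells under both treatments. With vehicle its level was 190, 192, 185 and 192 CPM in control replicates 1 to 4 and 333, 359, 379 and 392 CPM in Notch2tm1.1Ecan replicates. The groups did not overlap, and the log2 fold change was 0.95 ± 0.052 (SE; edgeR adjusted p = 1.26e-11), or 1.94-fold. With TNFα *Il1rn* was at 149, 145, 149 and 154 CPM in control and at 267, 264, 275 and 245 CPM in Notch2tm1.1Ecan replicates. The log2 fold change between genotypes was 0.83 ± 0.058 (edgeR adjusted p = 4.15e-11). TNFα lowered the antagonist in both genotypes without overlap of the libraries, with a log2 fold change of -0.34 ± 0.047 in control (edgeR adjusted p = 3.08e-06) and of -0.47 ± 0.062 in Notch2tm1.1Ecan cells (edgeR adjusted p = 3.75e-07). *Il1rn* lies at chr2:24226865-24241506 of GRCm39, apart from *Il1a* and *Il1b*. *Psd4*, next to it along the chromosome, was at 12.5 ± 0.811 CPM in control and 23.8 ± 1.62 CPM in Notch2tm1.1Ecan vehicle cells, a log2 fold change of 0.94 ± 0.086 (edgeR adjusted p = 4.58e-08). *Pax8*, beyond *Psd4*, had -0.17 ± 0.22 and was not called.

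Markers of other cells moved with the genotype beside *Il1rn*. Macrophages are known to express the antagonist, and 14 of 18 macrophage markers were higher in Notch2tm1.1Ecan cells with vehicle and 13 of 16 tested with TNFα, with a median log2 fold change of 1.11 and 1.18 against -0.002 and -0.012 over all genes tested. The summed macrophage markers ranged from 89.8 to 96.2 CPM in control vehicle, 170 to 199 in Notch2tm1.1Ecan vehicle, 109 to 123 in control TNFα and 219 to 259 CPM in Notch2tm1.1Ecan TNFα libraries, and *Cd163* was at 0 in all control vehicle libraries. With TNFα the marker sum was therefore higher in each genotype while *Il1rn* was lower. Endothelial markers summed to 10.5 to 12.7 CPM in control and 20.7 to 25.8 CPM in Notch2tm1.1Ecan vehicle libraries, with 5 of 10 called higher with vehicle and 3 with TNFα. Of 10 fibroblast markers 5 were called higher and 2 lower with vehicle, and 7 and 1 with TNFα. Of all genes tested, 6.19% were called higher and 4.35% lower with vehicle, and 5.63% and 4.31% with TNFα. All 15 chondrocyte markers were lower in Notch2tm1.1Ecan cells under both treatments, and with vehicle their sum was 51881 to 55679 CPM in control and 32356 to 37589 CPM in Notch2tm1.1Ecan libraries. Without control replicate 4 the macrophage counts were again 14 and 13 and the chondrocyte counts 14 and 15. With TNFα, 2 endothelial markers were then called higher, and 6 fibroblast markers higher and 1 lower. The part of these markers in the *Il1rn* result was not tested, and in bulk libraries fewer cells of a type and less RNA per cell cannot be told apart. The plot of *Il1rn* against macrophage markers shows the 16 libraries.

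**Figure D3:**
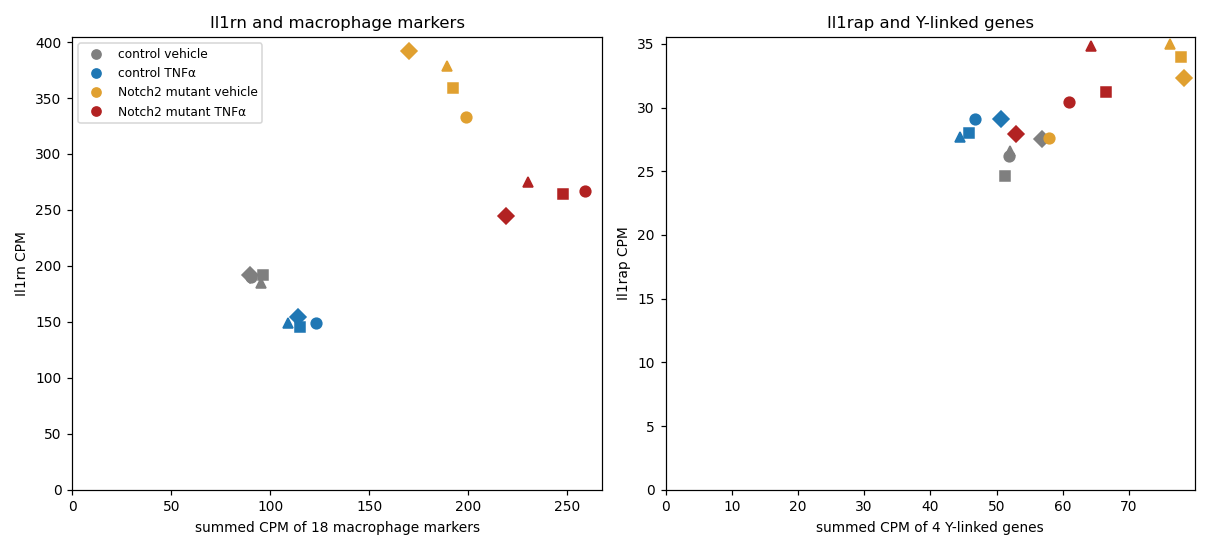
Left, *Il1rn* CPM against the summed CPM of 18 macrophage markers; right, *Il1rap* CPM against the summed CPM of 4 Y-linked genes; each symbol is 1 of 16 libraries, colored by group and shaped by replicate, on axes from 0. On the left the TNFα libraries lie to the right of and below the vehicle libraries of their genotype, and on the right Notch2tm1.1Ecan vehicle replicate 1 lies apart from the other 3.

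IL-18 binding protein rose with TNFα in both genotypes. *Il18bp* was at 1.77, 1.22, 1.87 and 4.05 CPM in control vehicle replicates 1 to 4, with replicate 4 the highest, and at 16.3, 16.2, 18.4 and 12.1 CPM with TNFα, with replicate 4 the lowest. The log2 fold change was 2.79 ± 0.31 (edgeR adjusted p = 0.00012), or 6.94-fold, and 3.37 ± 0.16 (edgeR adjusted p = 2.36e-16) without control replicate 4. In Notch2tm1.1Ecan cells *Il18bp* was at 1.17, 1.33, 1.4 and 1.4 CPM with vehicle and at 14.4, 14.6, 13.2 and 16 CPM with TNFα, a log2 fold change of 3.41 ± 0.15 (edgeR adjusted p = 5.92e-17), or 10.6-fold. Between genotypes *Il18bp* differed by -0.74 ± 0.30 with vehicle (edgeR adjusted p = 0.133) and by -0.13 ± 0.12 with TNFα (edgeR adjusted p = 0.581), neither called. The vehicle difference passed the threshold when genes of low counts were not filtered out (edgeR adjusted p = 0.0364), and without control replicate 4 it was -0.29 ± 0.26 and not called. Its exons share 446 bases with *Numa1* on the opposite strand.

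The decoy receptor *Il1r2* was close to the detection limit. Control libraries held 2, 4, 3 and 1 counts with vehicle and 5, 5, 11 and 2 counts with TNFα, and this difference was not called (log2 fold change 1.09 ± 0.69, edgeR adjusted p = 0.22). Notch2tm1.1Ecan libraries held 0, 1, 1 and 3 counts with vehicle and 3, 8, 3 and 3 counts with TNFα, so that the scaled levels did not overlap. *Il1r2* was called there (edgeR adjusted p = 0.00933), with a ratio of pooled counts of 6.21 and an exact 95% interval, for counting error only, of 2.2 to 21.5. The call was lost without Notch2tm1.1Ecan TNFα replicate 2 (edgeR adjusted p = 0.0517). Between genotypes it was not called with either treatment. *Il1r2* is a known product of neutrophils, and the summed level of 12 neutrophil markers was 0.138 to 0.667 CPM in vehicle and 1.38 to 2.84 CPM in TNFα libraries, the latter with *Mpo* and *Elane* at 0. *Camp*, encoding the granule peptide cathelicidin, was the neutrophil marker called higher with TNFα, in control cells at 0.168 ± 0.206 CPM with vehicle and 1.41 ± 0.228 CPM with TNFα, and the part of these markers was not tested.

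Among the receptor chains, the IL-33 receptor *Il1rl1* went from a level below *Il1rn* to the highest level of the 10 genes with TNFα. Control replicates 1 to 4 were at 75.4, 75.8, 75.3 and 142 CPM with vehicle and at 700, 688, 700 and 473 CPM with TNFα. Replicates 1 to 3 were nearly equal within each treatment, and replicate 4 lay toward the other treatment in each. The log2 fold change was 2.80 ± 0.30 (edgeR adjusted p = 0.000325), or 6.97-fold, and 3.21 ± 0.041 (edgeR adjusted p = 8.29e-30) without replicate 4. Notch2tm1.1Ecan libraries were at 50.2, 59.7, 57.4 and 53.4 CPM with vehicle and at 552, 587, 543 and 487 CPM with TNFα. This gave 3.30 ± 0.072 on the log2 scale (edgeR adjusted p = 1.55e-23), or 9.85-fold, with no overlap. *Il1rl1* is at chr1:40468730-40504575 on the plus strand of GRCm39, and gene counts do not separate its membrane-bound and soluble forms.

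The genotype difference of *Il1rl1* turned on control replicate 4. With vehicle all 4 Notch2tm1.1Ecan libraries, at 50.2 to 59.7 CPM, lay below all 4 control libraries, at 75.3 to 142 CPM, and the log2 fold change of -0.73 ± 0.25 was not called (edgeR adjusted p = 0.144). Without control replicate 4 it was -0.45 ± 0.062 and was called (edgeR adjusted p = 1.3e-05). With TNFα the values were -0.22 ± 0.12 (edgeR adjusted p = 0.317) with all libraries and -0.36 ± 0.059 (edgeR adjusted p = 6.36e-05) without control replicate 4. *Il1rl1* is also known from mast cells, and the 10 mast cell markers summed to 2.82 to 5.87 CPM. Of these, *Fcer1a*, *Ms4a2*, *Tpsb2*, *Mrgprb1* and *Tpsab1* were at 0 in all 16 libraries. *Kit* made up most of the sum, at 3.37 ± 0.264 CPM with vehicle and 4 ± 0.397 CPM with TNFα in control cells. In Notch2tm1.1Ecan cells *Kit* was at 4.24 ± 1.04 and 2.9 ± 1.05 CPM, and it was not called with TNFα in either genotype. *Hdc*, the histamine-forming enzyme, was the mast cell marker called higher with TNFα in control cells, at 0.0586 ± 0.0453 CPM with vehicle and 0.744 ± 0.449 CPM with TNFα.

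*Il1r1*, the signaling receptor of IL-1, was higher in Notch2tm1.1Ecan cells under both treatments. With vehicle the libraries were at 90.1, 89.5, 86.9 and 93.5 CPM in control and at 98.3, 104, 110 and 113 CPM in Notch2tm1.1Ecan cells, a log2 fold change of 0.25 ± 0.055 (edgeR adjusted p = 0.00315). With TNFα they were at 92.3, 94.3, 103 and 96.2 CPM in control and at 133, 133, 133 and 128 CPM in Notch2tm1.1Ecan cells, a log2 fold change of 0.46 ± 0.058 (edgeR adjusted p = 1.98e-06). The genotypes did not overlap under either treatment. TNFα raised *Il1r1* in Notch2tm1.1Ecan cells, by 0.31 ± 0.061 on the log2 scale (edgeR adjusted p = 0.000127), whereas in control cells it differed by 0.11 ± 0.052 and was not called (edgeR adjusted p = 0.101). Without control replicate 4 the control value was 0.13 ± 0.051 and was called (edgeR adjusted p = 0.0377). The difference between the genotypes in the response of *Il1r1*, 0.21 ± 0.082 on the log2 scale, was not called (edgeR adjusted p = 0.384).

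*Il1rap*, the accessory chain shared by the IL-1 and IL-33 receptors, differed between genotypes with vehicle. Its level was 26.2, 24.6, 26.6 and 27.5 CPM in control and 27.6, 34, 35 and 32.3 CPM in Notch2tm1.1Ecan cells, a log2 fold change of 0.31 ± 0.077 (edgeR adjusted p = 0.00974). The lowest Notch2tm1.1Ecan library, replicate 1, lay just above the highest control library, and the call was lost without Notch2tm1.1Ecan replicate 3 (edgeR adjusted p = 0.0678). With TNFα *Il1rap* was at 27.7 to 29.1 CPM in control and 27.9 to 34.8 CPM in Notch2tm1.1Ecan cells, which overlapped and were not called (0.16 ± 0.077, edgeR adjusted p = 0.242). TNFα against vehicle was not called in control (0.12 ± 0.068) or in Notch2tm1.1Ecan cells (-0.034 ± 0.084). The cultures pooled male and female mice. The summed level of 4 Y-linked genes was, like *Il1rap*, higher in Notch2tm1.1Ecan than in control vehicle libraries. These genes, *Uty*, *Kdm5d*, *Ddx3y* and *Eif2s3y*, were chosen after their values were seen. *Uty* and *Kdm5d* were among the genes most like *Il1rap* over the same 16 libraries, so that a likeness to *Il1rap* is built into the choice. With vehicle the sum was 51.9, 51.3, 52.1 and 56.9 CPM in control and 57.9, 77.9, 76.2 and 78.3 CPM in Notch2tm1.1Ecan replicates 1 to 4, with replicate 1 lowest as for *Il1rap*. With TNFα it was 44.5 to 50.6 CPM in control and 53 to 66.5 CPM in Notch2tm1.1Ecan libraries. In every control TNFα library the sum thus lay below, and *Il1rap* above, all control vehicle libraries. In Notch2tm1.1Ecan cells both overlapped between the treatments. *Xist*, from the inactive X chromosome, was at 312, 297, 251 and 373 CPM in control vehicle replicates 1 to 4. In Notch2tm1.1Ecan vehicle replicates 1 to 4 *Xist* was at 148, 313, 280 and 283 CPM, with replicate 1 again the lowest. With TNFα *Xist* was at 318 to 436 CPM in control and 196 to 345 CPM in Notch2tm1.1Ecan libraries. The part of the mix of sexes in the *Il1rap* result was not tested. *Il1rap* also shares 1425 exon bases with *Gm20319* on the opposite strand.

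The ligands were scarce. *Il18* was the only ligand well above the detection limit in every group, at 1.71, 2.89, 2.19 and 1.55 CPM in control vehicle and 3.78, 3.51, 5.19 and 3.03 CPM in control TNFα replicates. It rose by 0.92 ± 0.22 on the log2 scale (edgeR adjusted p = 0.00166), or 1.89-fold, with no overlap. In Notch2tm1.1Ecan cells *Il18* was at 0.758, 1.85, 1.82 and 2.09 CPM with vehicle and at 3.31, 3.04, 3.86 and 4.97 CPM with TNFα, a rise of 1.06 ± 0.24 (edgeR adjusted p = 0.000608). Between genotypes *Il18* overlapped and was not called with vehicle (-0.28 ± 0.27, edgeR adjusted p = 0.619) or with TNFα (-0.10 ± 0.20).

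*Il1b* was detected almost only with TNFα. Control libraries held 0, 0, 0 and 1 counts with vehicle and 0, 2, 10 and 4 counts with TNFα, and Notch2tm1.1Ecan libraries held 0 in all 4 with vehicle and 17, 9, 4 and 3 counts with TNFα. At 3 counts per library as the floor, *Il1b* was at least 4.64-fold higher with TNFα in Notch2tm1.1Ecan cells, from 0.678 ± 0.384 CPM (SD, n = 4) against a mean floor of 0.146 CPM, and it was called (edgeR adjusted p = 1.62e-05). In control cells it was at 0.225 ± 0.253 CPM with TNFα and was also called (edgeR adjusted p = 0.0269), with a ratio of pooled counts of 15.1 and an exact counting interval of 2.35 to 635. The control call was lost when any of control vehicle replicates 1, 2 or 3 was left out, with an edgeR adjusted p of up to 0.0754. Without control TNFα replicate 3, which held 10 of the 16 counts, *Il1b* had too few counts to be tested. Between genotypes with TNFα, the log2 fold change was 1.42 ± 0.65 with overlapping libraries and was not called (edgeR adjusted p = 0.199). Leaving out control TNFα replicate 3 gave 2.36 and a call (edgeR adjusted p = 0.0488). With all libraries the 95% interval of the *Il1b* genotype difference with TNFα, from its SE, ran from 0.15 to 2.70 on the log2 scale. Its unadjusted p was under 0.05 in edgeR and in DESeq2, but it was not called, on few counts.

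*Il1a* and *Il33* were near the detection limit as well. *Il1a* had 0 counts in all 4 control vehicle libraries, 1 in the Notch2tm1.1Ecan vehicle libraries together, and 1, 0, 3 and 2 counts in the control TNFα libraries. Notch2tm1.1Ecan TNFα libraries held 3, 6, 13 and 0 counts, the last in the library of lowest depth, where 3 counts are worth 0.828 CPM. TNFα raised *Il1a* in Notch2tm1.1Ecan cells (edgeR adjusted p = 0.000359, ratio of pooled counts 40.2 with an exact counting interval of 6.5 to 1659), and in control cells it had too few counts to be tested. Between genotypes with TNFα the ratio of pooled counts of *Il1a* was 4.66 (exact counting interval 1.83 to 14) and it was not called (edgeR adjusted p = 0.109). *Il33*, an alarmin held in the nucleus, had 2, 2, 0 and 2 counts in control vehicle, 5, 4, 1 and 7 in control TNFα, 0, 2, 1 and 3 in Notch2tm1.1Ecan vehicle and 7, 5, 2 and 2 counts in Notch2tm1.1Ecan TNFα libraries. It was called for TNFα in Notch2tm1.1Ecan cells (edgeR adjusted p = 0.0214, ratio of pooled counts 4.87 with an exact counting interval of 1.81 to 15.2) and not in control cells (edgeR adjusted p = 0.191). The call was lost without Notch2tm1.1Ecan TNFα replicate 1 (edgeR adjusted p = 0.0948). *Il1a*, *Il1b* and *Il33* share 477, 95 and 159 exon bases with transcripts of the opposite strand.

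In edgeR, the response to TNFα was not called different between genotypes for any of the 10 genes, beside 0.474% of all genes tested. *Il1r1* was the only gene of the 10 at an unadjusted p under 0.05, and DESeq2 gave 2 at that level, *Il18bp* and *Il1r1*, with 0 called. The estimates for the abundant genes were -0.13 ± 0.081 for *Il1rn*, 0.50 ± 0.28 for *Il1rl1* and 0.61 ± 0.32 for *Il18bp* on the log2 scale. Without control replicate 4 those of *Il1rl1* and *Il18bp* were 0.094 ± 0.086 and 0.032 ± 0.24. For *Il1rn* the 95% interval of the estimate, from its SE, runs from -0.29 to 0.031, and for *Il1rl1* with all libraries from -0.052 to 1.06. For *Il1a* and *Il1b*, groups without counts leave no usable estimate.

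*Il1r2*, *Il1r1* and *Il1rl1* lie in a receptor gene cluster on chromosome 1, and some of their neighbors were called higher with TNFα. Of 16 genes in the stretch from *Tbc1d8* to *Tmem182*, 14 were tested in each genotype, and 6 were called higher in control and 9 in Notch2tm1.1Ecan cells. Without *Il1r2*, *Il1r1* and *Il1rl1* themselves, 5 of 11 neighbors were called higher in control and 6 of 11 in Notch2tm1.1Ecan cells, beside 23.3% and 22.6% of all genes tested. *Il1rl2*, *Il18r1* and *Il18rap*, themselves receptor genes of the family, were among the neighbors called higher in both genotypes. The median log2 fold changes of the 11 were 0.91 and 0.65, against 0.039 and 0.026 over all genes tested. *Il1rl2*, a receptor chain for the related IL-36 cytokines that lies between *Il1r1* and *Il1rl1*, was at 7.84 ± 1.4 CPM with vehicle and 21.1 ± 2.44 CPM with TNFα in control cells, and at 9.55 ± 1.01 and 32.1 ± 4.73 CPM in Notch2tm1.1Ecan cells. It rose by 1.43 ± 0.12 on the log2 scale in control (edgeR adjusted p = 3.9e-09) and by 1.78 ± 0.10 in Notch2tm1.1Ecan cells (edgeR adjusted p = 4.82e-14). With TNFα, *Il1rl2* was also higher in Notch2tm1.1Ecan than in control cells (0.65 ± 0.10, edgeR adjusted p = 2.18e-05). *Il18rap*, the accessory chain of the IL-18 receptor, rose by 1.44 ± 0.32 in control (edgeR adjusted p = 0.00103) and by 1.48 ± 0.34 in Notch2tm1.1Ecan cells (edgeR adjusted p = 0.000675), and its level with TNFα was lower in Notch2tm1.1Ecan cells (-0.74 ± 0.23, edgeR adjusted p = 0.0399). This genotype call was lost without control replicate 4. The binding chain *Il18r1* was called in both genotypes at low counts, with 0, 3, 0 and 2 counts in control vehicle and 5, 9, 7 and 3 counts in control TNFα libraries. In control cells without replicate 4, 7 of 13 tested genes of the whole cluster were called higher, with a median of 1.14.

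**Figure D4:**
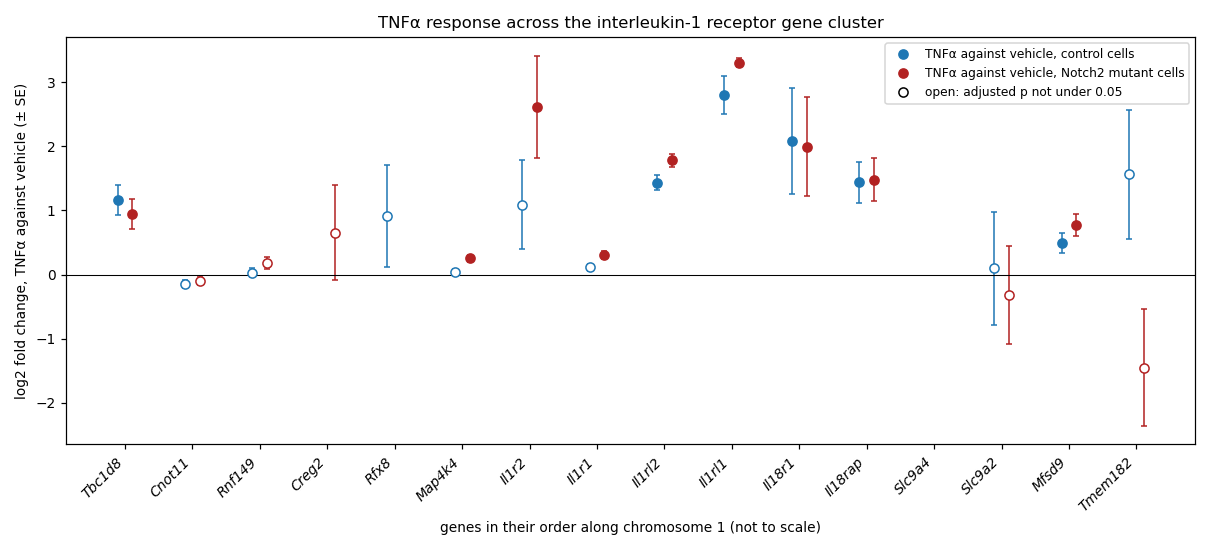
Log2 fold changes with TNFα against vehicle (vertical axis, ± SE, 4 libraries per group) for genes of the receptor cluster in their order along chromosome 1; blue is control and red is Notch2tm1.1Ecan, and filled points had an adjusted p under 0.05. *Il1rl1* stands highest in both genotypes, with filled points for *Il1rl2*, *Il18r1* and *Il18rap* beside it.

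Most tested genes of the IL-1 pathway and response lists rose with TNFα, and fewer of them were called between genotypes. Of all genes tested, 23.3% were called higher with TNFα in control and 22.6% in Notch2tm1.1Ecan cells. Whether IL-1 itself took part in the rises with TNFα was not tested. Of 24 genes of IL-1 receptor signaling, 17 were called higher and 3 lower with TNFα in control cells (median log2 fold change 0.45), and 17 and 3 in Notch2tm1.1Ecan cells (0.41). In control cells without replicate 4 the counts were 16 and 4. Feedback inhibitors of NF-κB led the list. *Tnfaip3*, encoding A20, was at 8.19 ± 8.59 CPM in control vehicle and 114 ± 9.49 CPM in control TNFα libraries, and *Nfkbia*, encoding IκBα, was at 31.6 ± 23.9 and 328 ± 25 CPM. *Peli2*, a ubiquitin ligase acting on IRAK1, fell by 0.68 on the log2 scale in control cells, from 19.6 ± 1.83 CPM, and the IκB kinase subunit *Chuk* fell by 0.52, from 34.9 ± 2.92 CPM. Between genotypes 2 genes of the list were called higher and 1 lower with vehicle, beside 6.19% and 4.35% of all genes tested. With TNFα 6 were called higher, beside 5.63%, and the medians were -0.082 with vehicle and 0.02 with TNFα. These counts were 2 higher with vehicle and 5 with TNFα when control replicate 4 was left out. With all libraries *Irak3*, encoding the inhibitory kinase IRAK-M, was the gene of this list with a called interaction, beside 0.474% of all genes tested. It was at 12.9, 13.5, 13.3 and 18.7 CPM in control vehicle, 36.5, 34.3, 34.7 and 30 in control TNFα, 10.8, 13.2, 14 and 13.9 in Notch2tm1.1Ecan vehicle and 51.9, 46, 49.1 and 58.2 CPM in Notch2tm1.1Ecan TNFα libraries. The TNFα libraries of the genotypes did not overlap, and the interaction was 0.74 ± 0.14 on the log2 scale (edgeR adjusted p = 0.00966), or 0.53 ± 0.13 without control replicate 4 (edgeR adjusted p = 0.0332). Without that replicate *Irak2*, encoding a kinase of the same family, was called in the opposite direction (-0.63 ± 0.15, edgeR adjusted p = 0.0273), against -0.55 and no call with all libraries (edgeR adjusted p = 0.0654).

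Of 19 genes of the inflammasomes and of the proteases that process IL-1 cytokines, 16 were tested for TNFα in control and 17 in Notch2tm1.1Ecan cells. Of these, 10 were called higher and 1 lower in each genotype, with medians of 0.88 in control and 0.73 in Notch2tm1.1Ecan cells. *Casp4*, the sensor of the non-canonical inflammasome, was at 2.57 ± 3.61 CPM in control vehicle and 39.4 ± 7.38 CPM in control TNFα libraries. *Nlrc4*, a sensor subunit, had 0 counts in all control vehicle libraries and 4, 2, 6 and 4 counts with TNFα. *Capn2*, a calpain, was the list member that fell, from 378 ± 4.44 to 264 ± 13.2 CPM in control cells (-0.51 ± 0.047, edgeR adjusted p = 1.2e-08). Between genotypes 1 of 16 was called higher and 1 lower with vehicle, beside 6.19% and 4.35% of all genes tested. With TNFα 4 of 17 were called higher and 1 lower, beside 5.63% and 4.31%. When control replicate 4 was left out, 1 was called lower with vehicle, and 3 were called higher and 2 lower with TNFα. Of the 11 other cytokines and receptors of the family, 5 had enough counts to be tested, and 3 of these, *Il1rl2*, *Il18r1* and *Il18rap*, rose with TNFα in each genotype. With TNFα 1 of the 5 was called higher and 1, *Il18rap*, lower in Notch2tm1.1Ecan cells, beside 5.63% and 4.31% of all genes tested. Without control replicate 4 the *Il18rap* call was lost, while 1 gene became called higher with vehicle.

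Among 24 genes known to respond to IL-1 in cartilage, 23 were tested. With TNFα 20 were called higher and 2 lower in control cells, and 20 and 3 in Notch2tm1.1Ecan cells, with medians of 3.16 and 3.19. In control cells without replicate 4 the counts were 21 and 2. *Saa3*, encoding an acute-phase serum amyloid A, was at 0.608, 0.761, 1.22 and 62.1 CPM in control vehicle libraries, with replicate 4 apart, and at 368 to 483 CPM with TNFα. In Notch2tm1.1Ecan cells *Saa3* was at 0.299 to 0.726 CPM with vehicle and 332 to 390 CPM with TNFα. *Csf2*, encoding GM-CSF, was called in control cells on 0 counts with vehicle and 0, 7, 3 and 2 counts with TNFα. *Ptgs2*, encoding cyclooxygenase, fell from 12.7 ± 0.49 to 7.02 ± 1.3 CPM in control cells (-0.85 ± 0.12, edgeR adjusted p = 6.01e-06), and the aggrecanase *Adamts5* fell from 282 ± 15.4 to 185 ± 15.6 CPM (-0.60 ± 0.059, edgeR adjusted p = 2.51e-08). Between genotypes 1 was called higher and 1 lower with vehicle, beside 6.19% and 4.35% of all genes tested. With TNFα 5 were called higher and 4 lower, beside 5.63% and 4.31% of all genes tested. Without control replicate 4 the vehicle median of -0.47 became 0.10, with 6 of 21 tested called higher and 3 lower, and with TNFα 5 were called in each direction. The plot of pathway genes gives each of these lists by comparison.

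The ligand genes *Il1a* and *Il1b* lie together on chromosome 2, far from *Il1rn*, and 13 genes of both stretches were found. Among these, with *Il1a*, *Il1b* and *Il1rn* included, 7 were tested for TNFα in control cells, with 3 called higher and 3 lower, and 8 in Notch2tm1.1Ecan cells, with 4 called higher and 3 lower. Without *Il1a*, *Il1b* and *Il1rn*, 5 were tested in each genotype, and 2 were called higher and 2 lower in each. Of all genes tested, 23.3% were called higher and 20.9% lower in control, and 22.6% and 21.9% in Notch2tm1.1Ecan cells. The phosphate transporter *Slc20a1* rose from 99.3 ± 21.3 to 359 ± 41.8 CPM in control cells, and *Sirpa*, a receptor of CD47, from 89.3 ± 5.15 to 104 ± 4.79 CPM. *Ckap2l*, a spindle gene, fell by 0.46 on the log2 scale and *Pax8* by 0.69. Without replicate 4, 3 were called higher and 2 lower in control cells. Between genotypes 3 of 6 tested genes of the stretches were called higher with vehicle, beside 6.19% of all genes tested. With TNFα 3 of 8 were called higher and 1 lower, beside 5.63% and 4.31%. Without *Il1a*, *Il1b* and *Il1rn*, 2 of 5 were called higher with vehicle, and 2 higher and 1 lower with TNFα. In control cells TNFα also lowered 12 of the 15 chondrocyte markers, among them *Sox9*, the chondrocyte master factor (213 ± 9.84 to 77.9 ± 21.7 CPM), and *Acan*, encoding aggrecan (1679 ± 87.3 to 663 ± 163 CPM). Of the macrophage markers 7 rose, among them *Cd14* (2.66 ± 0.304 to 6.15 ± 1.6 CPM), and *Mrc1* fell (5.29 ± 1.09 to 2.74 ± 0.704 CPM). Leaving out replicate 4, 5 rose and 1 fell. Of the fibroblast markers 6 rose and 1, *Lum*, fell, and 1 endothelial marker, *Tek*, rose.

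**Figure D5:**
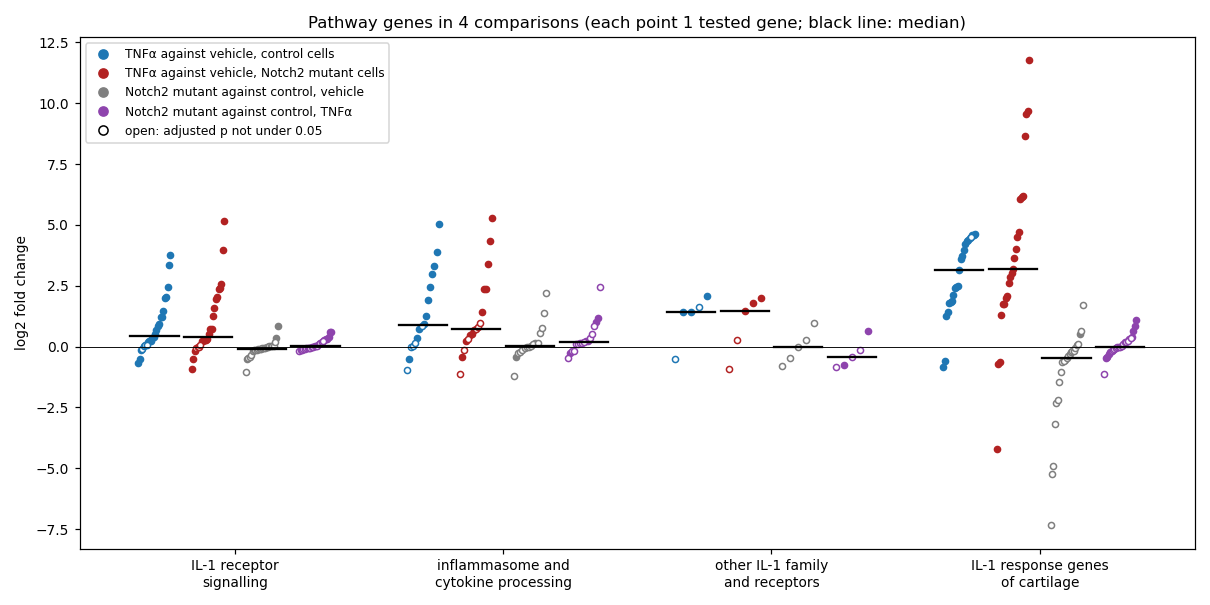
Log2 fold changes (vertical axis) of the tested genes of 4 lists in the 4 comparisons, 1 point per gene, filled at an adjusted p under 0.05, with the median as a black line. The medians of the cartilage response genes lie above 3 with TNFα in both genotypes, and the genotype comparisons have medians between -0.47 and 0.17.

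The genes whose pattern was most like that of each abundant gene were sought among 12407 protein-coding genes with a mean of at least 1 CPM, by Pearson's r of log2(CPM + 0.5) over the 16 libraries, which share the group structure and are described without a test. *Il1rn* was most like the chemokine gene *Cxcl12* (r = 0.991), *Gas6* (0.981) and *Sfrp1* (0.979). *Il18bp* was most like the major histocompatibility gene *H2-Q5* (r = 0.998), *Pik3ip1* (0.996) and *Ripk2* (0.996), and *Il1rl1* was most like *Tapbpl* (0.998), *Tor3a* (0.998) and *C1s1* (0.997). *Il1r1* was most like *Arrdc4* (r = 0.983), *Ctsc* (0.969) and *Ugcg* (0.966), and *Il18* was most like *Arhgap33* (0.915), *P2ry2* (0.915) and *Zfp874b* (0.912). For *Il1rap* the closest were *Uty* (r = 0.845) and *Kdm5d* (0.844), both Y-linked, and *Tmtc1* (0.844). The other 4 genes were below 1 CPM on average and were not compared.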

How the data were processed

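Libraries were stranded TruSeq RNA-Seq libraries of chondrocyte-enriched cells, 16 in all. The authors deposited whole-number counts of reads per gene for each library, made with HTSeq and not normalized, together with entries that name no gene, which held 8.81% to 12.1% of the reads counted and were left out. The submitters' processing notes name HISAT2 2.1.0, SAMtools 1.9, Picard and GRCm38, while the published methods name a later HISAT2 and GRCm39. The strand setting of the counting is not given in the sources used here. Gene names, coordinates and exon lengths were taken from GENCODE M39 on GRCm39 by identifier, which lacks 665 identifiers with 0.0182% of the counts, and promoters from RefSeq (GRCm38.p6).

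Groups followed the sample annotation. Each comparison used the 8 libraries of its groups, and the interaction all 16. Genes with at least 10 counts in sum were scaled with TMM factors and tested in edgeR 4.0.16 (limma 3.58.1, R 4.3.3) by the quasi-likelihood test, two-sided, with Benjamini-Hochberg adjustment over all genes tested and a threshold of 0.05. Standard errors in edgeR are the absolute log2 fold change divided by the square root of the quasi-likelihood F. The 95% intervals from these SE use the normal distribution and not the degrees of freedom of the test. The code was tested on simulated data. Python 3.11.15 with pandas 2.3.3, numpy 2.4.6, scipy 1.17.1 and matplotlib 3.10.9 made the summaries and plots. Counting intervals are exact 95% intervals (Clopper-Pearson) on pooled counts, and with the floor of 3 counts they cover counting error only. The sample annotation calls the libraries of a group biological replicates, without saying whether they came from separate animals, litters or cultures, and p-values measure the spread among these libraries.

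The 10 genes and the lists (chondrocyte, macrophage, neutrophil, mast cell, endothelial and fibroblast markers, IL-1 receptor signaling, inflammasome and cytokine processing, other family members, IL-1 response genes of cartilage and both gene clusters) were chosen with earlier results of these data known. All 10 genes were named, and of each list up to 2 genes called higher and 2 called lower with TNFα in control cells by largest log2 fold change. *Irak2*, *Irak3*, *Matn1*, *Mmp3*, *Mmp9*, *Psd4*, *Il1rl2* and the Y-linked genes were named after their values were seen. Alternatives were DESeq2 1.42.0, RLE factors, plain totals, other count filters, other thresholds, a replicate block, a fit to all libraries, each library left out, and control replicate 4 left out. The counts of the lists without that replicate were added after seeing the data.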

Additional observations from a re-analysis of the deposited data

Results flagged for a closer look

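In 38 groups of 4 libraries, 5 had a library apart from the rest by Dixon's criterion, which chance reaches in about 1 in 20 groups of continuous values. *Il1rl1* was highest in control vehicle replicate 4, at 142 CPM, and lowest among control TNFα libraries in replicate 4, at 473 CPM. *Il1r1* was lowest in Notch2tm1.1Ecan TNFα replicate 4, at 128 CPM from 463 counts. A single count each set apart *Il1a* in Notch2tm1.1Ecan vehicle replicate 4, at 0.023 CPM, and *Il1b* in control vehicle replicate 4, at 0.0595 CPM. Where the other libraries of a group hold 0 counts, 1 count always meets the criterion, so that the rate above does not apply to these flags.

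Among the genes of the lists, 2 responded to TNFα differently in the genotypes by the interaction in edgeR with all libraries. Of all 21321 genes tested, 101 or 0.474% were called for the interaction. *Irak3* rose more in Notch2tm1.1Ecan cells, by 0.74 on the log2 scale (edgeR adjusted p = 0.00966). *Matn1*, encoding the cartilage protein matrilin, had a further drop, with an interaction of -0.41 (edgeR adjusted p = 0.0305), which was -0.31 and not called without control replicate 4 (edgeR adjusted p = 0.0848). Without that replicate 5 other list genes were called that were not called with all libraries. They were *Lum* (0.34, edgeR adjusted p = 0.0467), *Irak2* (-0.63, edgeR adjusted p = 0.0273), *Mmp3* (-0.74, edgeR adjusted p = 1.38e-05), *Mmp9* (-1.72, edgeR adjusted p = 0.000323) and *Slc20a1* (-0.59, edgeR adjusted p = 1.38e-05). Of all 20955 genes tested without that replicate, 74 were called with a higher and 58 with a lower interaction.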

How the results depend on the processing

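Of the log2 fold changes of the 10 genes under alternatives that kept all libraries or dropped control replicate 4, 282 kept direction and side of the threshold, 7 became called, 1 lost its call and 1 reversed. With a change of at least 2-fold also required, 3 of the 10 genes were called for TNFα in control cells, 0 between genotypes with vehicle and 0 with TNFα. With edgeR's default count filter 5 were called for TNFα in Notch2tm1.1Ecan cells, where *Il1a*, *Il1b*, *Il33* and *Il1r2* had too few counts to be tested. With DESeq2 the genotype value of *Il1r2* with TNFα was 0.022 instead of -0.04 on the log2 scale. *Il1rl1* was called lower in Notch2tm1.1Ecan vehicle cells with DESeq2 (adjusted p = 0.0226) and in the edgeR fit to all 16 libraries (adjusted p = 0.0392), and with TNFα in edgeR without a count filter (adjusted p = 0.00916). Same-numbered replicates deviated together by correlations of -0.19 to 0.142, and in 0 of 4 comparisons were all over 0.1, so that the numbers were not taken as pairs. With the replicate block *Il1b* in control cells had a log2 fold change of 3.21 (edgeR adjusted p = 0.0557), 4 of the 10 genes were called there, and no other call of the 10 changed.

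Leaving out 1 library at a time gave 4 to 5 called genes for TNFα in control cells, 8 to 9 in Notch2tm1.1Ecan cells, 2 to 4 between genotypes with vehicle, 2 to 3 with TNFα and 0 for the interaction. *Il18bp* became called lower in Notch2tm1.1Ecan vehicle cells without control vehicle replicate 2 (edgeR adjusted p = 0.0491), as it did with all libraries and no count filter (edgeR adjusted p = 0.0364). Directions changed in uncalled values, which ranged from -0.10 to 0.0013 for *Il1rap* with TNFα in Notch2tm1.1Ecan cells, and between genotypes with TNFα from -0.39 to 0.43 for *Il1r2*, from -0.05 to 0.64 for *Il33* and from -0.23 to 0.06 for *Il18*. The interaction of *Il18* ranged from -0.038 to 0.33. The cause of these changes was not tested. Over all genes, 101 interactions were called, against 174 with DESeq2, 266 without a count filter, 10 at 2-fold and 51 to 156 with 1 library left out. Other scalings moved the median of all genes by at most 0.066 on the log2 scale. Depth limits *Il1a*, *Il1b*, *Il33* and *Il1r2*, which had at most 17 counts in any library.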
